A study of Picea glauca with 69 samples.

Results

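GA3ox encodes gibberellin 3-oxidase, the enzyme of the last step in the synthesis of active gibberellin, and was 1 of 5 gibberellin genes followed with quantitative real-time PCR in young trees of the conifer Picea glauca (white spruce). It was taken as the row named GA3ox in the deposited sheets, where it is identified only by an assembled transcript, PG29_BFMXY_Trinity_Pasafly_comp413321_c0_seq1_rc. The row holds 1 value for each of 69 seedlings, made from 207 wells, 3 per seedling. A tissue label names needles, whereas the protocol describes extraction from apical internodes, and no marker of either tissue was among the measured genes, so this could not be checked. The design text also speaks of pooling RNA, without saying how, while each seedling has its own values.

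The seedlings stood untreated in a greenhouse in their second growing season, with 16 h of light and 8 h of darkness a day and at most 25 °C in daytime and 18 °C at night. The experiment ended on day 92. The seedlings belong to 3 breeding strategies. Controlled-cross (CC) families have both parent trees numbered in the title (18 seedlings, 6 families), polymix (PM) families received a mixture of pollen (21 seedlings, 6 families), and open-pollinated (OP) families, the study's control, have an unrecorded pollen source (30 seedlings, 8 families). Of the 20 families told apart by title 17 have 3 seedlings and 3 have 6, while the design text counts 23 families. Repetitions 4 to 6 of 754_PM are PM by title and by breeding strategy although their sample type reads control, and PM was used for them here.

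Gibberellins are plant hormones that promote stem elongation, and in conifers they also promote shoot growth and cone formation. GA20ox makes the inactive precursors, GA3ox turns these into the active hormone, and GA2ox inactivates active hormone and precursors. GID is the hormone's receptor, and DELLA is the growth repressor that is degraded when the receptor binds gibberellin. In Arabidopsis active gibberellin lowers the transcripts of GA20ox and GA3ox genes and raises those of GA2ox genes.

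Levels are given on a log2 scale against the control gene TIF, as the deposited difference in threshold cycles with its sign turned. At perfect amplification a step of 1 stands for a factor of 2. Values nearer to 0 mean more transcript. GA3ox crossed the threshold late, at a mean cycle of 31.2 over all wells, from 27.9 in the earliest to 34.8 in the latest of 40 cycles. The control gene, measured in 3 wells of the same set, had seedling means between 18.95 and 23.06 cycles.

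The level of GA3ox differed widely between seedlings. Over the 69 seedlings it had a lowest value of -13.09, a median of -10.27 and a highest of -7.50, a range of 48.1-fold. The lowest value belonged to 927_OP repetition 2 and the highest to 154_OP repetition 2, so both ends were open-pollinated. Of the 6 lowest seedlings 4 were OP, 1 was PM and 1 was CC, and of the 6 highest 2 were of each strategy.

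Within strategies, CC seedlings had a lowest GA3ox of -11.82, a median of -10.03 and a highest of -7.93. PM seedlings had a lowest of -12.44, a median of -9.89 and a highest of -7.53. OP seedlings had a lowest of -13.09, a median of -10.60 and a highest of -7.50. The 3 ranges overlapped almost entirely, and the OP seedlings lay lower in the middle of theirs. Above the median of the series were 11 of 18 CC seedlings, 13 of 21 PM seedlings and 10 of 30 OP seedlings.

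**Figure D1:**
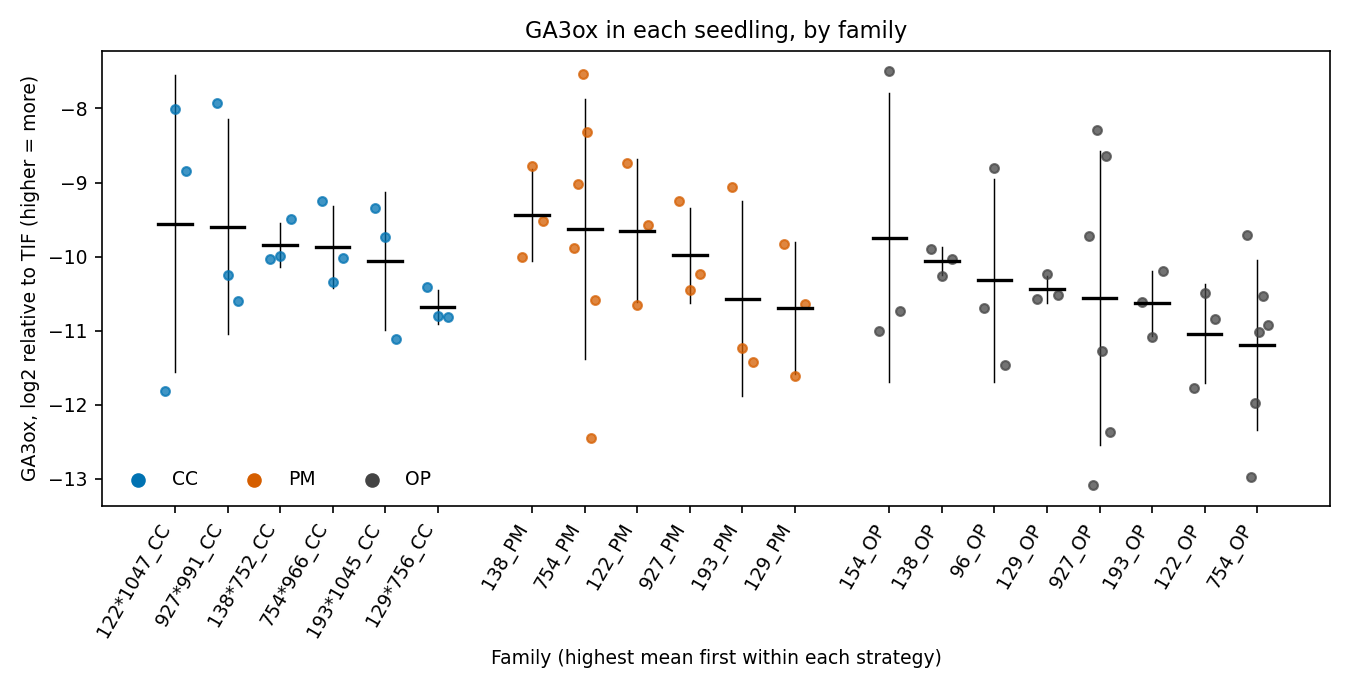
GA3ox level of each of the 69 seedlings (points; log2 relative to TIF, higher is more transcript), grouped by family and coloured by strategy; bars are family means and thin lines 1 SD to each side. Some families span most of the range of the series, as 754_PM does, from -12.44 to -7.53, while 129_OP and 138_OP are tight.

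The order of the 20 family means ran from -9.44 in 138_PM down to -11.19 in 754_OP, a range of 3.38-fold. Neighbours in this order lay close together. The gaps between neighbouring family means were at most 0.35, against an SD of 1.26 between seedlings of the same family. That SD is one of single seedlings and not of means, so the comparison does not show that the families were alike. Of the 9 families with a mean above -10, 1 was OP (154_OP), and the lower 10 of the 20 means included 6 of the 8 OP families.

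The 3 highest families were 138_PM, 122*1047_CC and 927*991_CC. In 138_PM the seedlings measured -10.01, -8.78 and -9.52, a mean of -9.44 ± 0.62 (SD, n = 3). In 122*1047_CC they measured -11.82, -8.01 and -8.84, a mean of -9.56 ± 2.00 (n = 3). In 927*991_CC they measured -7.93, -10.25 and -10.60, a mean of -9.59 ± 1.45 (n = 3). Of these families, 138_PM had all 3 seedlings above the series median, and the means of the other 2 joined high and low seedlings.

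The lowest families were 129_PM, 122_OP and 754_OP. The seedlings of 129_PM measured -9.84, -11.61 and -10.63, a mean of -10.69 ± 0.89 (n = 3). Those of 122_OP measured -11.78, -10.50 and -10.84, a mean of -11.04 ± 0.66 (n = 3). The 6 seedlings of 754_OP had a lowest value of -12.98, a median of -10.97 and a highest of -9.71, a mean of -11.19 ± 1.15. The 3 seedlings of 122_OP lay within the range of 122*1047_CC, whose mean was 1.48 higher.

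The other 2 families with 6 seedlings, 754_PM and 927_OP, were widely spread. 754_PM had a lowest GA3ox of -12.44, a median of -9.45 and a highest of -7.53, and 927_OP had -13.09, -10.49 and -8.29. Their seedlings differed 30.1-fold and 27.7-fold, against 9.67-fold in 754_OP. In 754_PM repetitions 1 to 3 averaged -8.81 ± 1.19 (SD, n = 3) and repetitions 4 to 6, those with the control sample type, -10.45 ± 2.07 (n = 3), and the 2 sets overlapped.

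The replicate wells varied far less than the seedlings. The median SD of the 3 GA3ox wells was 0.17 cycles, and the error of the well means, control wells included, amounted to 1.93% of the variance between seedlings of a family. An SD over 0.5 cycles occurred in 8 seedlings, 5 of them among the 6 of 754_OP and 3 among the other 63, which places the least repeatable wells in the family of lowest mean. In 1 of the 5, 754_OP repetition 1, the last wells appear moved by 1 gene between rows, and its deposited normalized value differed by 0.361 from that of its wells. In 20 of the 69 seedlings the last GA3ox well lay within 0.0001 cycles of the mean of the other 2, and in 0 did the first or second well do so. If such wells were filled in, the well SDs are too small.

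The first comparison asked whether GA3ox differed between families of the 3 strategies, with the family mean as the replicate. CC families lay between -10.68 and -9.56, with a mean of -9.93 ± 0.41 (SD, n = 6 families), PM families between -10.69 and -9.44, with a mean of -9.99 ± 0.53 (n = 6), and OP families between -11.19 and -9.74, with a mean of -10.50 ± 0.48 (n = 8). The family means of all strategies overlapped, and 5 of 6 CC families and 4 of 6 PM families lay above the OP median. GA3ox in CC families was 1.48-fold the OP level (95% interval 1.02 to 2.14; exact two-sided permutation p = 0.0403), and in PM families 1.42-fold (0.943 to 2.14; exact p = 0.0872).

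Neither difference passed after adjustment over the 15 contrasts of 5 genes (Benjamini-Hochberg adjusted exact p = 0.201 and 0.327), nor did any other contrast: the share called was 0%, and 3 of the 15 (20%) had an unadjusted exact p under 0.05. CC and PM families differed by 0.0601 (exact p = 0.846), and the interval of CC over PM, 0.676 to 1.58, does not show that they are equal. As the labels do not say how seed lots or seedlings were kept apart, the p-values speak of the spread among these families.

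The size of the difference depended on the control wells. Without a control gene, the threshold cycle of GA3ox was lower by 0.65 cycles in CC than in OP families (30.82 against 31.47 cycles, exact p = 0.0286) and by 0.44 in PM (31.03 cycles, exact p = 0.145). The TIF wells run with GA3ox differed by -0.0933 cycles in CC minus OP (exact p = 0.721) and by 0.0467 in PM minus OP (exact p = 0.883). The TIF wells run with DELLA and GID differed by -0.32 and -0.20 cycles (exact p = 0.110 and 0.490), and with those as the reference GA3ox was 0.33 higher in CC than in OP (exact p = 0.195) and 0.24 higher in PM (exact p = 0.433).

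The trees that head the family titles allow a closer look. All 3 strategies are represented for 6 trees, and GA3ox was higher in the CC than in the OP family for 5 of the 6 trees, and likewise in the PM family. In tree 122 the CC family exceeded the OP family by 1.48 and the PM family exceeded it by 1.39. In tree 754 these differences were 1.32 and 1.56, and in tree 927 they were 0.97 and 0.58. Tree 193 had 0.57 and 0.0622, tree 138 had 0.22 and 0.63, and in tree 129 the order was turned, at -0.23 and -0.25.

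Over the 6 trees the difference averaged 0.72 ± 0.66 (SD, n = 6) in CC minus OP and 0.66 ± 0.71 in PM minus OP, each with an exact paired permutation p of 0.0938 where the smallest possible is 0.0312. CC minus PM of the same tree averaged 0.0601 ± 0.35 (exact paired p = 0.719) and never exceeded 0.51 in size. For trees 122 and 754, with the largest differences, the OP families were the lowest of all 20, and the 754_OP wells were the least repeatable.

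**Figure D2:**
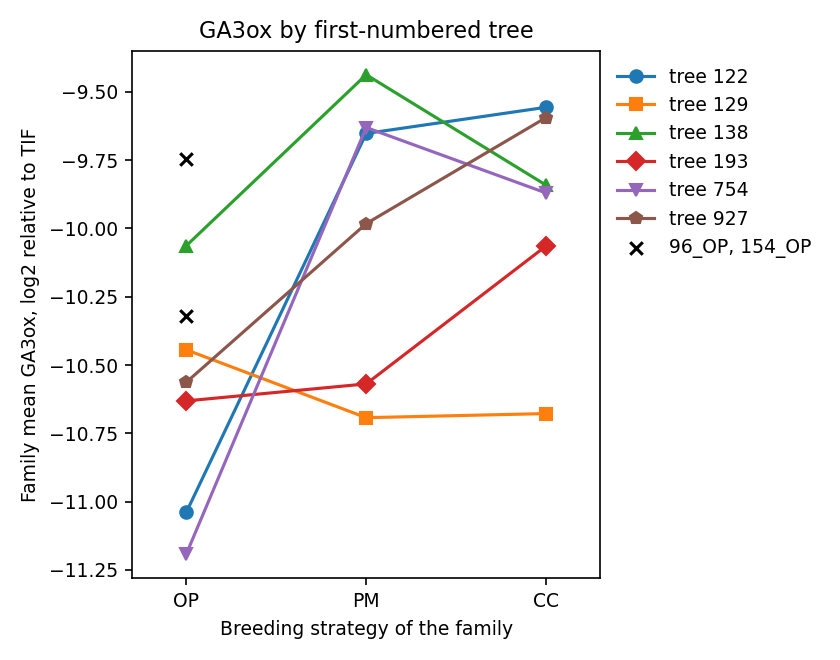
Family mean of GA3ox (log2 relative to TIF) in OP, PM and CC families, joined by lines for each of the 6 trees with all 3 strategies; crosses are the 2 OP families of other trees. In trees 122 and 754 the PM and CC families lie 1.32 to 1.56 above the OP family, and in tree 129 they lie below it.

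Trees themselves were not separated. Tree 129 had the lowest mean over its 3 families, -10.61 ± 0.14 (SD), and tree 138 the highest, -9.78 ± 0.32. A one-sided permutation test of the tree, with the strategy as a term, gave F = 1.44 (p = 0.284, adjusted 0.474 for 5 genes). Seedlings of 1 family had no detectable likeness in GA3ox beyond that across families. The SD of family means was 0.52, the intraclass correlation was -0.11, and the permutation test of F over 20 families gave p = 0.839 (one-sided, F = 0.66, adjusted 0.839), with 0 of 5 genes (0%) at an unadjusted p under 0.05.

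The second comparison set the spread of GA3ox within families against that of the other genes. The median SD between seedlings of a family was 0.91 for GA3ox, 0.70 for GA2ox, 0.60 for GA20ox, 0.38 for DELLA and 0.30 for GID. GA3ox was the most variable of the 5 genes in 9 of the 20 families, GA2ox in 6, DELLA in 3, GID in 2 and GA20ox in 0. The receptor gene was the least variable by this median.

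Compared family by family, the SD of GA3ox was 2.79 times that of GID (geometric mean ratio, larger in 17 of 20 families, exact sign-flip permutation p = 0.000134, adjusted 0.00134 over 10 gene pairs). It was 2.03 times that of DELLA (larger in 16 families, exact p = 0.00145, adjusted 0.00362) and 1.47 times that of GA20ox, the enzyme of the step before it (larger in 14 families, exact p = 0.0170, adjusted 0.0339). Against GA2ox it was 1.24 times (larger in 12 families, exact p = 0.234, adjusted 0.236), which did not pass. Of the 10 gene pairs 5 (50%) passed, so a difference in spread was common among these genes. Of the 4 pairs with GA3ox, 3 passed.

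The call against GA20ox was lost in 5 of 8 alternatives. These were values recomputed from the wells (adjusted exact p = 0.0562), the replicate block (0.175), leaving out poorly repeated wells, of SD over 0.5 cycles (0.226), and leaving out repetition 1 (0.943) or 2 (0.0696). Without repetition 1, which leaves most families with 2 seedlings, 0 of the 4 pairs with GA3ox passed. The log2 ratio was then -0.17 against GA20ox, 0.11 against GA2ox, 0.14 against DELLA and 1.08 against GID (exact p = 0.718, 0.849, 0.759 and 0.0761). The ratio against GA2ox passed on threshold cycles without the control gene (log2 ratio 0.91, exact p = 0.00135, adjusted 0.00769) and without repetition 3 (0.93, exact p = 0.00598, adjusted 0.0150). On cycles without the control gene the log2 ratio was 0.94 against GID and 0.73 against DELLA, smaller than the deposited 1.48 and 1.02, and both passed. Against GA20ox it was 0.58, beside 0.55 as deposited. GID and DELLA were measured in 2 wells and referred to other TIF wells than GA3ox.

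**Figure D3:**
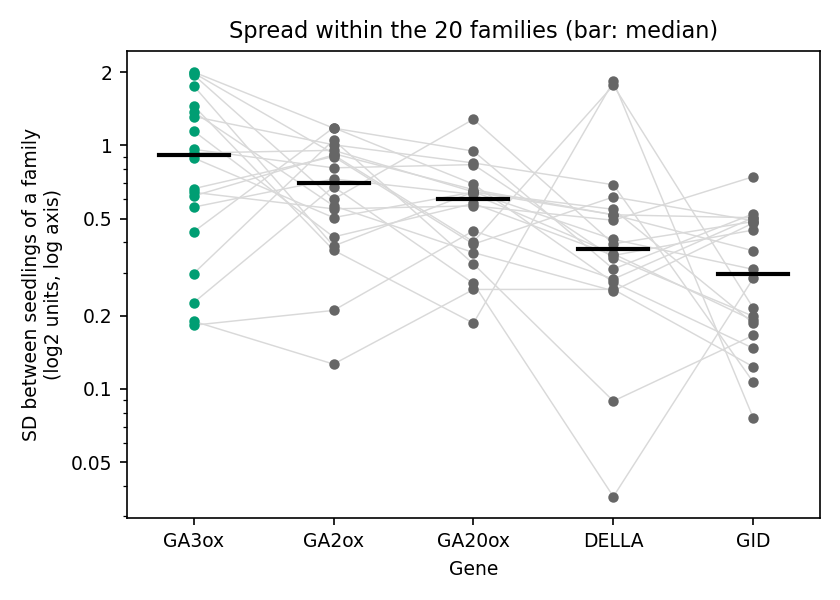
SD between seedlings of each of the 20 families (points, joined by a grey line per family) for the 5 genes, in log2 units on a log axis; black bars are medians. GA3ox has the highest median, 0.91, and its families reach from 0.18 to 2.00, while GID reaches 0.74 at most.

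The families of GA3ox differed in how tight they were. An SD under 0.5 was found in 5 families: 129_OP (0.18), 138_OP (0.19), 129*756_CC (0.23), 138*752_CC (0.30) and 193_OP (0.44). An SD over 1.5 was found in 4: 122*1047_CC (2.00), 927_OP (1.98), 154_OP (1.95) and 754_PM (1.76). Of the 5 tight families 4 carry the numbers of trees 129 and 138, and the 4 wide ones those of other trees. Pooled over its 3 families, the SD within families was 0.41 for tree 138 and 0.54 for tree 129, against 0.96 for tree 193, 1.34 for tree 122, 1.37 for tree 754 and 1.66 for tree 927. This difference was noticed in these values and was not tested.

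The third comparison set GA3ox against each other gene within the same seedling, as a log2 ratio. GA3ox over GA2ox, the balance of the last synthesis step to inactivation, had a lowest value of -5.10, a median of -1.75 and a highest of 2.04. GA3ox over GA20ox, consecutive steps of synthesis, had a lowest value of -5.18, a median of -1.97 and a highest of 2.36. Levels of different genes rest on different primer pairs, so only differences between groups are compared.

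By family, GA3ox over GA2ox had a mean of -1.12 ± 0.58 for CC (SD, n = 6), -1.21 ± 0.39 for PM (n = 6) and -1.99 ± 0.69 for OP (n = 8). CC families had 1.83-fold the OP ratio (95% interval 1.08 to 3.12; exact p = 0.0306) and PM families 1.73-fold (1.07 to 2.82; exact p = 0.0280), each with an adjusted p of 0.170 over 30 ratio contrasts. Without repetition 1 the log2 differences of CC and PM from OP were 0.56 and 0.33 (exact p = 0.297 and 0.526), against 0.87 and 0.79 with all repetitions. GA2ox itself was related to the sample number (r = 0.51, permutation p = 1e-05, the smallest that the permutations can give, adjusted 5e-05; n = 69 seedlings). With the sample number as a term the ratio exceeded that of OP by 0.78 in CC and by 0.82 in PM families (exact p = 0.0876 and 0.0473). Its lowest family mean was -3.18, in 754_OP, and its highest -0.48, in 138*752_CC. GA3ox over GA20ox had a mean of -1.68 ± 0.54 for CC, -1.69 ± 0.58 for PM and -2.12 ± 0.65 for OP. The CC and PM ratios were 1.35-fold (0.824 to 2.24; exact p = 0.210) and 1.34-fold (0.803 to 2.24; exact p = 0.229) the OP ratio, each with an adjusted p of 0.430. On the linear scale these 2 differences turned, to -0.0182 and -0.0252 (exact p = 0.976 and 0.982), and without repetition 1 PM minus OP was -0.0262.

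GA3ox over GID, synthesis to receptor, had a mean of -2.21 ± 0.44 for CC, -2.18 ± 0.35 for PM and -2.97 ± 0.53 for OP. The CC and PM ratios were 1.69-fold (1.13 to 2.52; exact p = 0.0160) and 1.72-fold (1.18 to 2.52; exact p = 0.00899) the OP ratio. GID itself, as deposited, was -0.19 in CC minus OP and -0.28 in PM minus OP (exact p = 0.0243 and 0.0316, each adjusted 0.201). The deposited GID values thus enter this difference too. The TIF wells to which GID was referred themselves differed by -0.32 and -0.20 cycles in CC and PM minus OP. How much of the GID difference came from these wells was not tested. For GA3ox over DELLA, CC families had 1.35-fold the OP ratio (0.926 to 1.96; exact p = 0.110) and PM families 1.47-fold (1.07 to 2.01; exact p = 0.0230). Both ratios were smaller without repetition 1. The differences of CC and PM from OP were then 0.0683 and 0.0621 for GA3ox over DELLA (exact p = 0.889 and 0.819), and 0.46 and 0.35 for GA3ox over GID (exact p = 0.296 and 0.421).

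After adjustment 0 of the 30 contrasts (0%) passed, and 7 (23.3%) had an unadjusted exact p under 0.05, 5 of them among the 8 of GA3ox against OP. These 8 share the GA3ox values and the OP families and are not separate evidence. GID and DELLA were referred to other TIF wells than GA3ox. With the control gene cancelled, the 2 differences from OP, CC first, were 0.53 and 0.51 for GA3ox over GID (exact p = 0.0636 and 0.0872), against 0.76 and 0.79 as deposited. For GA3ox over DELLA they were 0.20 and 0.28 (exact p = 0.455 and 0.278), against 0.43 and 0.55.

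**Figure D4:**
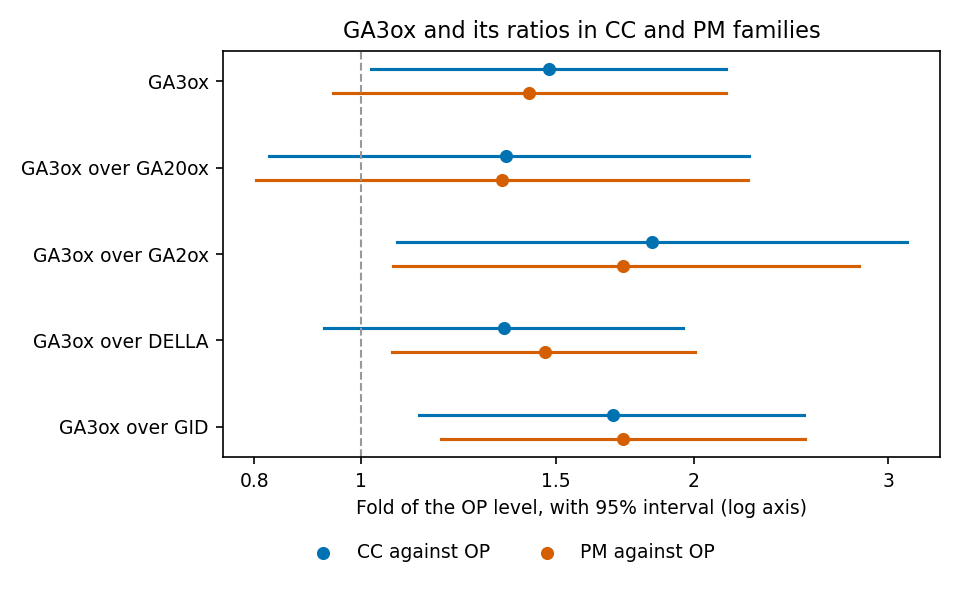
GA3ox and its ratio to each of the other 4 genes in CC and PM families, as fold of the OP level (points) with 95% intervals from the exact test (lines), on a log axis; the dashed line is 1. All 10 points lie above 1, between 1.34 and 1.83, and none passed after adjustment. They share the GA3ox values and the OP families and are not separate evidence. The ratios to GID and DELLA are as deposited, with other TIF wells than GA3ox, and were smaller with the control gene cancelled.

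The fourth comparison asked which gene varied most like GA3ox over the 20 family means. By Pearson's r the order was DELLA (0.52, permutation p = 0.0145, adjusted 0.145 over 10 pairs; Spearman's rho 0.56, permutation p = 0.0113, adjusted 0.113), GA20ox (0.0430, permutation p = 0.856, adjusted 0.856; rho 0.11, p = 0.651, adjusted 0.746), GID (-0.0830, permutation p = 0.729, adjusted 0.810; rho -0.10, p = 0.672, adjusted 0.746) and GA2ox (-0.26, permutation p = 0.275, adjusted 0.459; rho -0.19, p = 0.430, adjusted 0.614). None of the 4 relations passed, and of all 10 gene pairs 0% did. The relation of GA3ox to DELLA was 0.65 when the 2 families farthest from the GA3ox median were left out (permutation p = 0.00065, adjusted 0.0065), but 0.20 when poorly repeated wells were left out (permutation p = 0.418). Without repetition 3 it was 0.13 (permutation p = 0.596). In repetition 3 DELLA was -2.62 in 138_PM and -2.22 in 927*991_CC, against a mean of -5.31 over all seedlings. Both families were among the 3 of highest GA3ox mean, and both were kept in the r of 0.65.

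Among seedlings centred on their family mean, GA3ox had no detectable relation to any other gene, with r of -0.0819 for GA20ox, -0.0969 for DELLA, -0.10 for GID, and -0.11 for GA2ox (n = 69 seedlings, permutation within families, p from 0.456 to 0.636, adjusted 0.707). Of all 10 gene pairs 10% passed here, namely DELLA with GID (r = 0.34, adjusted permutation p = 0.0041), which were both referred to the same TIF wells. GA3ox and GA20ox, the 2 consecutive synthesis steps, share their control wells and had no detectable relation at either level. Over families, without the 2 farthest from the GA3ox median, r was 0.20 for GA20ox, 0.0506 for GA2ox and 0.17 for GID (n = 18 families).

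The labels give no PCR plate or run. Titles number the samples, and 5 series of these numbers were read from the offset between the 2 sets of TIF wells, at a mean of 0.50 cycles in samples 1 to 24, -0.72 in 25 to 32, 0.55 in 33 to 56, -0.41 in 57 to 64 and -0.0187 in 65 to 69. GA3ox averaged -10.09 ± 1.19 (SD, n = 24), -10.44 ± 0.74 (n = 8), -9.95 ± 1.26 (n = 24), -10.77 ± 1.55 (n = 8) and -10.89 ± 0.36 (n = 5) in these series in the same order. The highest and lowest of these means differed by less than the SD within 3 of the 5 series. That SD is one of single seedlings, so the comparison does not show that the series were alike. Of the 5 genes 1 (20%), GA2ox, was related to the sample number after adjustment. GA3ox had no detectable relation to it (Pearson's r = -0.0910, permutation p = 0.459, adjusted 0.574 over 5 genes; Spearman's rho = -0.16, permutation p = 0.184, adjusted 0.460; r = -0.0664 without the 2 samples farthest from the median number; n = 69 seedlings). Its threshold cycle without the control gene did (r of the sign-turned cycle = -0.47, permutation p = 2e-05, adjusted 0.0001), and the TIF cycle moved alongside, with a mean of 20.27 in the first series and 21.88 in the last.

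In means of seedlings, the difference between strategies was not even across these series, which hold different families. In samples 33 to 56 CC seedlings averaged -9.22 (n = 5) and PM seedlings -9.20 (n = 8) against -10.81 in OP (n = 11), differences of 1.59 and 1.61. Tree 754 entered these means with 754_OP seedlings at -12.98, -11.98 and -11.02 and 754_PM seedlings at -9.02, -8.31 and -7.53. Its 754*966_CC seedling measured -10.02, below the CC mean. How much of the 1.59 and 1.61 came from tree 754 was not tested. Samples 1 to 24 gave 0.30 and 0.85 (7 CC, 6 PM and 11 OP seedlings). The smaller series gave 0.20 and -0.70 in samples 25 to 32, 0.31 and -0.98 in samples 57 to 64, and -0.13 and -0.27 in samples 65 to 69, with 1 to 5 seedlings of a strategy each. PM minus OP was thus positive in the 2 larger series and negative in the 3 smaller ones, and the difference between series was not tested.

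The ratio of GA3ox to GA2ox behaved alike, again in means of the same seedlings. Among samples 1 to 24 CC minus OP was 0.52 and PM minus OP 0.85. In samples 33 to 56 these differences were 1.84 and 2.16. PM minus OP was -0.50, -0.88 and -0.52 in the 3 smaller series, and CC minus OP was 0.76, 0.61 and -0.83. GA3ox over GA20ox in CC minus OP was 0.34, -0.35, 1.77, -0.86 and 0.35 in the 5 series in order, and in PM minus OP 1.04, -0.51, 1.42, -1.43 and -0.0244. When the series entered the fit as a term, GA3ox was 0.65 higher in CC than in OP (exact p = 0.0869) and 0.57 higher in PM (exact p = 0.0996).

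By repetition, GA3ox in CC minus OP was 0.70 in repetition 1, 0.70 in repetition 2 and 0.36 in repetition 3 (6 CC and 8 OP seedlings each), and in PM minus OP it was 1.04, 0.27 and 0.69. All 6 differences were positive. Without repetition 1, which leaves the 3 families of 6 seedlings with 5 and the others with 2, PM minus OP was 0.14 (exact p = 0.731) and CC minus OP 0.41 (exact p = 0.342), and without repetition 2 PM minus OP was 0.82 (exact p = 0.00566, adjusted 0.0849). The 0.14 lies below the 0.27 and 0.69 of repetitions 2 and 3 alone. Its family means also hold repetitions 4 to 6, which averaged -10.45 in 754_PM, -10.83 in 754_OP and -10.76 in 927_OP. Mean sample numbers were 14.95, 33.15 and 50 in repetitions 1 to 3, so repetition and sample number moved together.

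**Figure D5:**
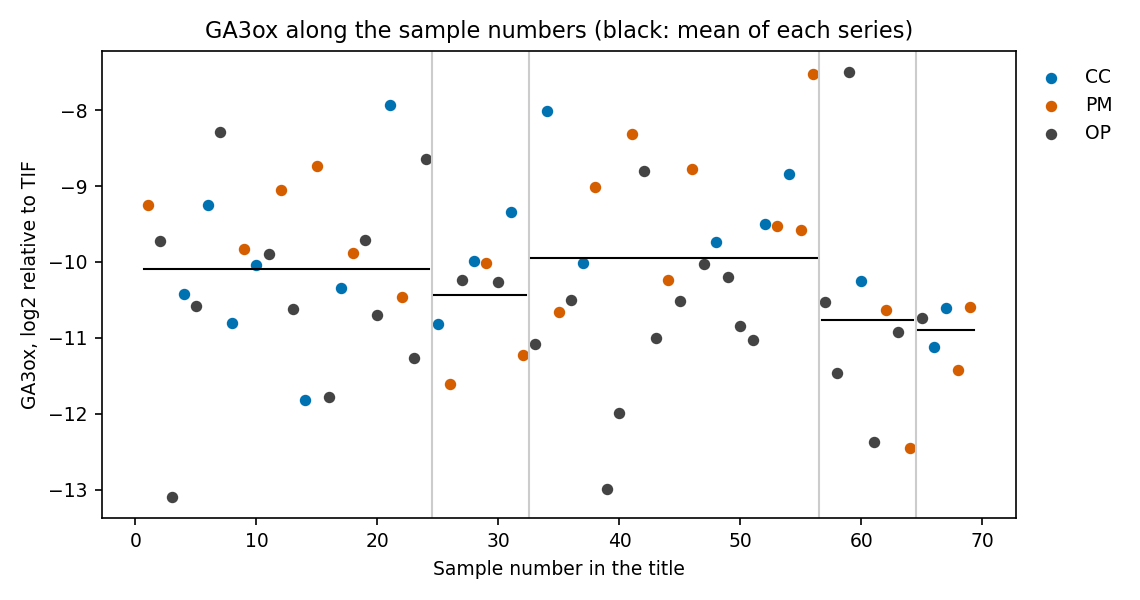
GA3ox level (log2 relative to TIF) of the 69 seedlings along the sample number of their titles, coloured by strategy; grey lines separate the 5 series and black lines are series means. The OP seedlings lie mostly below the others in samples 33 to 56, where their mean was -10.81, while the highest and the lowest seedling of all, at -7.50 and -13.09, lie in other series.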

How the data were processed

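The authors deposited threshold cycles (Ct, unit score here) per well, raw per the file headers, from SYBR Green PCR on cDNA of 0.5 µg RNA with primers at 300 nM and 40 cycles, per the labels' protocols. They also deposited a normalized sheet on a log2 scale, which on checking is the mean target Ct minus the mean Ct of the TIF wells run with it. For GA3ox 63 of 69 values equalled this within 0.001 cycles, 754_OP repetition 1 differed by 0.361 and the other 5 by at most 0.0894. The sources used here do not give the amplification efficiency or threshold. These data have no read depth, and precision is set by wells, seedlings and families.

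Signs were turned, and no value was filtered or imputed. Seedlings were averaged per family. Contrasts of family means were tested by exact two-sided permutation (3003 splits against OP, 924 for CC against PM), with 95% intervals by inversion, and adjusted by Benjamini-Hochberg over 15 gene or 30 ratio contrasts at 0.05. Spread was tested by exact sign flips of log2 SD ratios over 20 families, F and correlations by 100000 permutations, of residuals where a term was fitted. Tests were tried on simulated data. Python 3.11.15, numpy 2.4.6, scipy 1.17.1 and pandas 2.3.3 were used. The gene, the lists and the tests were chosen with earlier results of these data known. The rule for names took all 4 other genes, ordered by Pearson's r with GA3ox, all 20 families in the order and the plot, seedling values for the 3 highest and 3 lowest families and those with 6 seedlings, and the tight and wide families were chosen after their values were seen. Alternatives covered control wells, well summaries, scale, pairing by tree, unit, family count, repetition, sample number and left-out seedlings or families.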

Additional observations from a re-analysis of the deposited data

How the results depend on the processing

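GA3ox in CC minus OP and in PM minus OP kept its sign under all 42 alternatives each, and 0 of these passed the adjusted threshold (adjusted exact p from 0.140 to 0.830 and from 0.0849 to 0.872). Leaving out each family in turn gave 0.47 to 0.71 in CC minus OP, with an unadjusted exact p under 0.05 in 10 of 20 cases, and 0.39 to 0.65 in PM minus OP, in 3 of 20. Leaving out a family of the third strategy cannot change a contrast. The 10 cases of CC minus OP thus include all 6 PM families, at the unchanged exact p of 0.0403. In PM minus OP the 6 CC families are among the cases not under 0.05. The 42 alternatives and the 601 values below also include such unchanged cases. Leaving out a repetition gave 0.41 to 0.66 and 0.14 to 0.82. Of 601 alternative values over all results 548 kept direction and side of the threshold. Of the 41 reversals 27 concern CC minus PM, which lay near 0. With the 3 PM seedlings of control type left out or counted as OP, CC minus PM was -0.0763 for GA3ox, -0.17 for GA3ox over GA20ox and -0.0454 for GA3ox over GA2ox. For GA3ox over GA20ox it was also -0.0557 with 23 families and with the seedling as unit, -0.0629 with the replicate block, -0.0583 with the sample number as a term, -0.33 in mean rank and -0.0176 without wells of SD over 0.5. For GA3ox over GA2ox it was -0.0414 with the sample number. Leaving out repetitions gave CC minus PM of -0.16 to 0.27 for GA3ox, -0.18 to 0.28 for GA3ox over GA20ox and -0.48 to 0.58 for GA3ox over GA2ox, and leaving out families -0.0798 to 0.21, -0.20 to 0.17 and -0.0429 to 0.27. GA3ox over GA20ox in PM minus OP ranged from -0.0262 to 0.85 without a repetition, and on the linear scale was -0.0252, with CC minus OP at -0.0182. Without a repetition GA3ox over GA2ox ranged from 0.56 to 1.20 in CC minus OP and 0.33 to 1.35 in PM minus OP, GA3ox over DELLA from 0.0683 to 0.72 and 0.0621 to 0.75, and GA3ox over GID from 0.46 to 0.89 and 0.35 to 1.02, each lowest without repetition 1. Without 154_OP, PM minus OP passed for GA3ox over GID (0.91, exact adjusted p = 0.0175) and over DELLA (0.66, exact adjusted p = 0.0350).

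Correlations over families reversed for GA20ox (-0.0345 with the series as a term, -0.0819 among centred seedlings), DELLA (-0.0969 among centred seedlings), and GA2ox (0.0506) and GID (0.17) without the 2 farthest families, where DELLA passed (0.65). Without a repetition they ranged from 0.13 to 0.41 for DELLA, -0.14 to 0.0333 for GA20ox, -0.46 to 0.0543 for GA2ox and -0.21 to 0.20 for GID, and that with the sample number from -0.31 to 0.00565. Without the control gene the latter was -0.47 and passed. The log2 ratio of spread against GA20ox missed the threshold when recomputed from wells (0.50), with the replicate block (0.44) without wells of SD over 0.5 (0.43) and without repetition 2 (1.04, exact adjusted p = 0.0696), and that against GA2ox passed without the control gene (0.91). Without a repetition these ratios ranged from -0.17 to 1.04 for GA20ox, 0.0860 to 0.93 for GA2ox, 0.14 to 1.62 for DELLA and 1.08 to 1.97 for GID. The cause of these changes was not tested. Leaving out a repetition leaves most families an SD from 2 seedlings.

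The repetition number shared between families was not shown to pair seedlings, and the design text speaks of blocks without tying them to it. Over the 5 genes the mean correlation of deviations was 0.0151 for 570 same-numbered pairs of seedlings and -0.00896 for 1140 different-numbered pairs. It was over 0.1 in 255 of the 570 and in 492 of the 1140, a similar share. With it as a replicate block GA3ox was 0.51 higher in CC than in OP (exact p = 0.04995) and 0.49 in PM (exact p = 0.0916), and apart from the spread against GA20ox and CC minus PM above, the block changed no call and no sign. The alternatives added after seeing the data were the other TIF wells, the seedling 754_OP repetition 1 left out (0.60 and 0.54), the ratios to DELLA and GID, spread without the control gene and correlations without poor wells.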
